A study of Mus musculus with 79 samples.

Results

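The 8 multidrug efflux transporter genes Abcc1, Abcc2, Abcc3, Abcc4, Abcc5, Abcb1a, Abcb1b and Abcg2 were followed in the lungs of mice exposed to cigarette smoke. They were chosen by name, with earlier results of these data known. Each matched 1 row of the deposited expression table through its RefSeq transcript. In all, 8 of the 21759 distinct gene symbols in the table are described here. All 8 encode ABC transporters that act as membrane pumps and spend ATP to carry compounds out of the cell. The Abcc genes encode the multidrug resistance-associated proteins (MRPs), which export glutathione, glucuronide and sulfate conjugates made by detoxifying enzymes, and signaling lipids and cyclic nucleotides. Abcb1a and Abcb1b encode the mouse forms of P-glycoprotein, a pump for lipophilic compounds, and Abcg2 encodes breast cancer resistance protein, which pumps sulfated and planar aromatic compounds. In the lung these pumps lie in airway and alveolar epithelium, capillary endothelium and macrophages.

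Gene expression was measured with 1 microarray per mouse in RNA of the right lung of 79 mice. All were C57BL/6J-background littermates aged 5 to 7 weeks, either wildtype (WT) or carrying a transgene that overexpresses Scnn1b, the β subunit of the epithelial sodium channel, in airway epithelium (βENaC mice), a model with dehydrated airway mucus that develops bronchitis-like and emphysema-like changes without smoke. Mice of each genotype received mainstream and side-stream smoke of 6 unfiltered reference cigarettes a day, or room air in the same kind of chamber (sham), for 1 day or for 5 consecutive days, and the lungs were taken 4 hours after the last exposure. At 1 day there were 5 mice in each of the 8 groups of genotype, exposure and sex, 40 mice in all. At 5 days there were 39 mice, with 5 in each group except for 6 WT sham females, 4 WT smoke-exposed males and 4 βENaC sham females. Separate mice were the replicates. All values below are log2 intensities, a scale on which a difference of 1 is a doubling and on which the level of one gene cannot be set against that of another.

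The arrays were of even quality, with array medians from 4.44 to 4.55 and no pair of arrays correlated below 0.965. The defining lung epithelium markers measured here (Sftpc, Sftpb, Scgb1a1, Ager and Nkx2-1 were listed, and 4 of the 5 had a row) were bright in every mouse, with means from 12.43 to 12.66. Scnn1b, the transgene, lay between 8.42 and 9.47 in the 40 WT mice and between 11.52 and 11.88 in the 39 βENaC mice, with no overlap. One label field named 13 WT smoke-exposed mice as βENaC against their titles and genotype labels. They were 4 of the 10 WT smoke-exposed mice at 1 day and all 9 at 5 days. Their Scnn1b levels were those of WT mice, the titles were followed, and the main results are also given without these 13 mice.

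Cigarette smoke raised 4 of the 8 transporters at 1 day: Abcc1, Abcc3, Abcc4 and Abcc5. Abcc1 (MRP1, an exporter of glutathione conjugates and leukotriene C4) was 1.31-fold higher, Abcc3 (MRP3, an exporter of glucuronides and bile salts) 1.23-fold, Abcc4 (MRP4, an exporter of cyclic nucleotides and prostaglandins) 1.21-fold and Abcc5 (MRP5, an exporter of cyclic nucleotides) 1.11-fold. By limma with Benjamini-Hochberg adjustment over all 31350 rows of the table, 5.03% of rows rose at this duration, against 4 of 8 transporters, and no transporter fell. With the further rule of a change over 1.3-fold, Abcc1 alone passed, against 0.488% of all rows. Its log2 difference of 0.39 was near that cut, which is 0.379 on this scale. The median difference of the 8 transporters was 0.08, beside 0.01 over all rows.

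Abcc1 had the largest smoke difference of the 8 at 1 day. In the 20 sham mice at 1 day it ranged from 7.22 to 7.83 with a median of 7.45, and in the 20 smoke-exposed mice from 7.58 to 8.25 with a median of 7.88. All 20 smoke-exposed mice lay above the sham mean of their own genotype and sex, and 11 lay above the highest sham mouse of all, although the ranges overlapped. The difference was 0.39 ± 0.05 (SE, 95% interval 0.29 to 0.49, adjusted p = 5.41e-07). After 5 days the sham mice ranged from 7.22 to 7.64 (median 7.49) and the 19 smoke-exposed mice from 7.33 to 8.06 (median 7.74). Of the 19 mice, 18 lay above the sham mean of their own group and 16 above every sham mouse. Abcc1 rose by 0.26 ± 0.04 (0.19 to 0.33, adjusted p = 4.86e-06). Among the 8 groups of genotype, exposure and duration, mean Abcc1 was highest in WT smoke-exposed mice at 1 day (7.91 ± 0.21, SD), followed by βENaC smoke-exposed mice at 1 day (7.82 ± 0.15) and at 5 days (7.80 ± 0.13) and WT smoke-exposed mice at 5 days (7.68 ± 0.15). The 4 sham groups followed between 7.41 and 7.54. Neighbors in this order differed by less than the larger of their SDs, except for βENaC sham (7.54 ± 0.08) and WT sham mice (7.43 ± 0.09) at 5 days.

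Abcc3 rose at both durations. Sham mice at 1 day ranged from 7.27 to 8.24 (median 7.82) and smoke-exposed mice from 7.44 to 8.56 (median 8.15). These ranges overlapped widely, and 18 of the 20 smoke-exposed mice lay above the sham mean of their own genotype and sex. The difference was 0.30 ± 0.05 (0.19 to 0.41, adjusted p = 0.000162). At 5 days sham mice ranged from 7.31 to 8.29 (median 7.78) and smoke-exposed mice from 7.48 to 8.65 (median 7.98), with 18 of 19 above the sham mean of their group. The difference was 0.29 ± 0.05 (0.18 to 0.40, adjusted p = 0.000248).

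**Figure D1:**
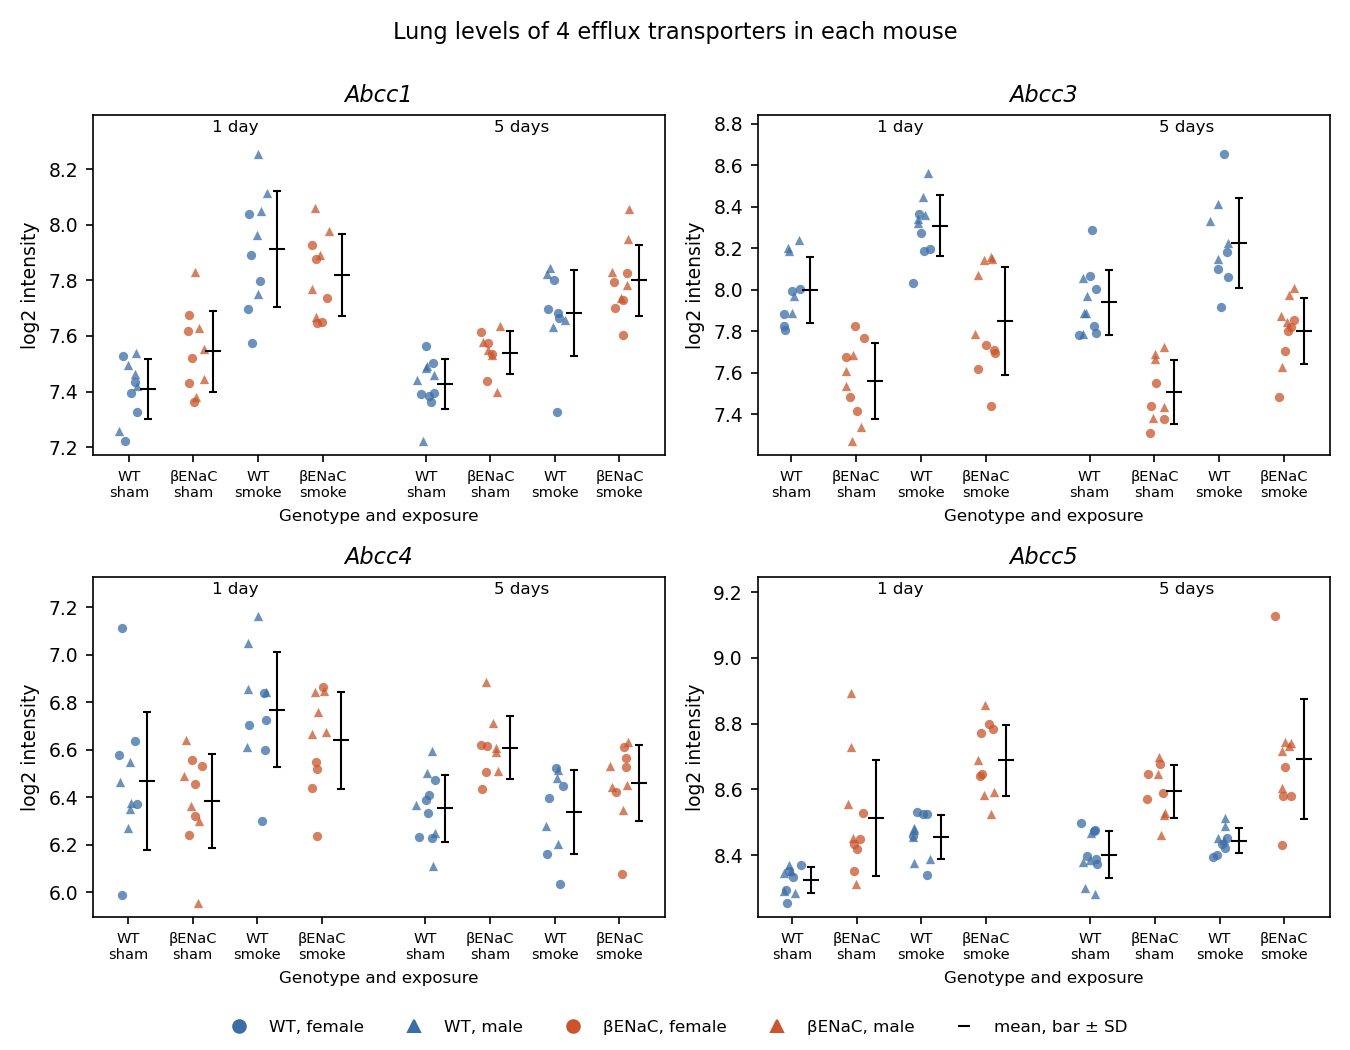
Log2 intensity of Abcc1, Abcc3, Abcc4 and Abcc5 in each mouse by genotype and exposure, at 1 day on the left and 5 days on the right of each panel. Circles are females, triangles are males, and black bars are the mean ± SD of each group. Abcc1 and Abcc3 are higher with smoke at both durations, Abcc4 at 1 day only by the test in the text (0.28 against -0.08), and Abcc3 is lower and Abcc5 higher in βENaC than in WT mice.

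Abcc4 and Abcc5 rose at 1 day. Abcc4 ranged from 5.95 to 7.11 (median 6.42) in sham mice and from 6.24 to 7.16 (median 6.71) in smoke-exposed mice. Of the 20 smoke-exposed mice 18 lay above the sham mean of their own group, but the ranges overlapped, the highest sham mouse being a WT female at 7.11. The difference was 0.28 ± 0.07 (0.13 to 0.42, adjusted p = 0.00889). Abcc5 ranged from 8.25 to 8.89 (median 8.36) in sham mice and from 8.34 to 8.86 (median 8.53) in smoke-exposed mice, again with 18 of 20 above the sham mean of their own group. No smoke-exposed mouse exceeded the highest sham mouse. The difference was 0.15 ± 0.04 (0.08 to 0.23, adjusted p = 0.00396).

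At 5 days Abcc1 and Abcc3 were the only transporters called, 2 of 8 against 3.17% of all rows that rose, and none passed with the 1.3-fold rule, against 0.581% of rows. Abcc4 ranged from 6.11 to 6.88 (median 6.49) in sham mice and from 6.03 to 6.63 (median 6.45) in smoke-exposed mice, a difference of -0.08 ± 0.05 (-0.18 to 0.02, adjusted p = 0.426). Only 7 of the 19 smoke-exposed mice lay above the sham mean of their own group. Abcc5 differed by 0.07 ± 0.04 (adjusted p = 0.306). Without the 13 mice with the contradictory label, which leaves no WT smoke-exposed mouse at 5 days, the same transporters were called at each duration. Abcc1 then differed by 0.37 at 1 day (adjusted p = 1.81e-05), below the 1.3-fold cut, and by 0.26 at 5 days (0.00198). Abcc3 then differed by 0.29 (0.00192) and 0.30 (0.0179), and at 1 day Abcc4 by 0.28 (0.0288) and Abcc5 by 0.14 (0.0311).

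The other 4 transporters did not pass the test for smoke at either duration. Abcb1a ranged from 8.07 to 8.70 (median 8.43) in sham mice and from 7.73 to 8.86 (median 8.30) in smoke-exposed mice at 1 day, a difference of -0.12 ± 0.06 (adjusted p = 0.226), and differed by -0.06 ± 0.05 (adjusted p = 0.633) at 5 days. Its paralog Abcb1b, on the same chromosome (5), varied most between mice of one group, with sham mice from 4.77 to 6.17 and smoke-exposed mice from 4.57 to 5.69 at 1 day. The 5-day ranges were 4.50 to 5.86 (median 5.21) in sham mice and 4.96 to 5.93 (median 5.48) in smoke-exposed mice. Its differences were -0.04 ± 0.10 (adjusted p = 0.879) and 0.19 ± 0.10 (-0.03 to 0.40, adjusted p = 0.359), so that a 5-day rise of up to 0.40 lay within the interval. Whether probes for Abcb1a and Abcb1b, which are close in sequence, bind both transcripts was not tested. Abcg2 ranged from 7.24 to 7.79 (median 7.58) in sham mice and from 7.24 to 7.83 (median 7.51) in smoke-exposed mice at 1 day. It differed by -0.04 ± 0.04 (-0.13 to 0.05, adjusted p = 0.66) at 1 day and by 0.07 ± 0.05 (-0.04 to 0.17, adjusted p = 0.556) at 5 days. Abcc2 (MRP2, best known as the pump of conjugates into bile) had a dim row, from 2.83 to 3.34 over all mice with a mean at the 14.8th percentile of all rows, and differed by 0.01 at both durations. Signal over background was not analysed here, so whether Abcc2 RNA was detected cannot be said.

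**Figure D2:**
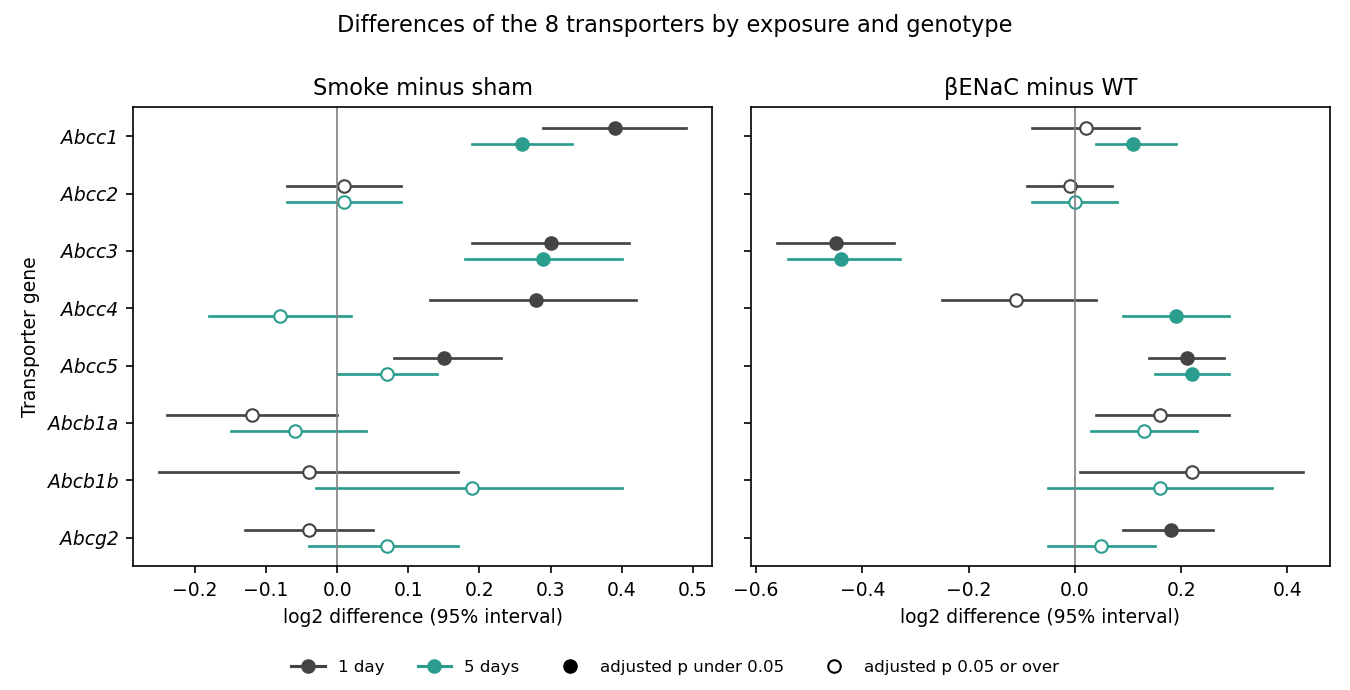
Difference of each of the 8 transporters between smoke-exposed and sham mice (left) and between βENaC and WT mice (right) in log2 units, at 1 day (grey) and 5 days (green). Lines are 95% intervals and filled points have an adjusted p under 0.05. With smoke, Abcc1 and Abcc3 stand above 0 at both durations, and between genotypes Abcc3 lies at -0.45 and -0.44.

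The study asked whether the response to smoke changed from 1 to 5 days. The change in the smoke difference (5 days minus 1 day, in all 79 mice) passed the test for 1 of the 8 transporters, Abcc4, against 1.3% of all rows. For Abcc4 it was -0.34 ± 0.09 (-0.53 to -0.16, adjusted p = 0.0389). This call was near the threshold. It was lost when genotype and sex were left out of the model (-0.34, adjusted p = 0.0603), without the 13 mice with the contradictory label (-0.28, adjusted p = 0.313), and on leaving out any of 21 single mice from 13 of the 16 groups, the largest adjusted p being 0.0575 without WT sham female 1 at 1 day. The changes were -0.13 ± 0.06 (adjusted p = 0.393) for Abcc1, -0.01 ± 0.08 (-0.16 to 0.14, adjusted p = 0.989) for Abcc3 and -0.08 ± 0.05 (adjusted p = 0.536) for Abcc5. By mean level the 8 groups ran, for Abcc4, from WT smoke-exposed mice at 1 day (6.77 ± 0.24), βENaC smoke-exposed mice at 1 day (6.64 ± 0.20) and βENaC sham mice at 5 days (6.61 ± 0.13) down to WT smoke-exposed mice at 5 days (6.34 ± 0.18), with the others between 6.35 and 6.47. Every neighbor in this order lay within the larger of both SDs.

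The promoters of Abcc4 and Abcc5 are shown because these were the transporters called for smoke whose promoter sequences were available. RefSeq windows of 300 bases (250 before to 50 after a gene start, build GRCm38.p6) were held for 6 of the 8 transporters, with Abcc1 and Abcc3 missing. Abcc4 had 2 windows and Abcc5 had 1, all on the minus strand. Both strands were searched for the core of the antioxidant response element, TGACNNNGC, which NRF2 binds, and for the core of the xenobiotic response element, GCGTG, which AHR binds. Matches are in capitals, on either strand.
Abcc4, chr14:118706170-118706469: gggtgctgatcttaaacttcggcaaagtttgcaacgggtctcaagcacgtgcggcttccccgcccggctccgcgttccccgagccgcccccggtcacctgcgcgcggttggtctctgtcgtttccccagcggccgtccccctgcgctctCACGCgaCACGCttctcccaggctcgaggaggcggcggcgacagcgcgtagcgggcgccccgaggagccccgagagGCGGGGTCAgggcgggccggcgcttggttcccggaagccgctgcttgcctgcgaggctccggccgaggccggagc
Abcc4, second start, chr14:118676882-118677181: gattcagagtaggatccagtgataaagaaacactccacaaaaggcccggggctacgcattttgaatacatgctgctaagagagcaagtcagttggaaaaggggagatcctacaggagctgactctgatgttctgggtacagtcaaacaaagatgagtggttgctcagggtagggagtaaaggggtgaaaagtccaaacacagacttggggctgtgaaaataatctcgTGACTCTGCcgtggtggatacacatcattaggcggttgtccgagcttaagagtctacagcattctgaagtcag
Abcc5, chr16:20426345-20426644: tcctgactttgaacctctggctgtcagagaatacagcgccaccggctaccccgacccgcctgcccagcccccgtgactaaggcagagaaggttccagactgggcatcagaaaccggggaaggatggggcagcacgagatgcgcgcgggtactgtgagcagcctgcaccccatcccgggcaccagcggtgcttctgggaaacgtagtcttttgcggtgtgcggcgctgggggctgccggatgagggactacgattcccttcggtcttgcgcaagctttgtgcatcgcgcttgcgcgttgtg
The first Abcc4 window held 1 antioxidant match on the opposite strand, beginning at position -25 from the start, and 2 xenobiotic matches on the opposite strand, at -101 and -94. The second Abcc4 window held 1 antioxidant match on the gene's strand at -23 and no xenobiotic match. The Abcc5 window held neither. Of all 32851 windows of this length, 12.4% held the antioxidant core and 32.4% the xenobiotic core. Among the transporters that were not raised, Abcc2 and Abcb1a each had 1 antioxidant match, 1 of the 3 windows of Abcg2 had 1 xenobiotic match and the Abcb1b window had none. A match is a run of letters and was not tested for binding.

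Smoke differences were next computed for each genotype and sex. Abcc1 was higher with smoke in all 8 combinations of genotype, sex and duration, from 0.19 ± 0.08 in βENaC females at 5 days to 0.59 ± 0.09 in WT males at 1 day. At 1 day it was 0.42 in WT females, 0.25 in βENaC females and 0.31 in βENaC males. The difference between genotypes (βENaC minus WT) was -0.23 ± 0.09 for Abcc1 at 1 day, with an unadjusted p of 0.0189 and an adjusted p of 0.658, and -0.00 at 5 days. Abcc3 differed by 0.00 ± 0.09 in βENaC females and by 0.57 ± 0.09 in βENaC males at 1 day, with 0.31 in both sexes of WT mice, and by 0.22 to 0.36 in all 4 groups at 5 days. Abcc4 differed by 0.10 in females of both genotypes and by 0.50 in WT and 0.41 in βENaC males at 1 day.

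No transporter passed the test for a smoke response that depended on genotype or on sex. By limma, 0 of 8 were called for exposure by genotype at 1 day, against 0.00638% of all rows. At 5 days 0 of 8 were called, against 0% of rows. At an unadjusted p under 0.05 were 1 and 0 transporters, beside 2189 and 1197 of the 31350 rows. For exposure by sex, 0 of 8 were called at 1 day, against 0.00638% of rows, and 0 of 8 at 5 days, against 0%. At an unadjusted p under 0.05 were 3 and 0 transporters, beside 1984 and 1085 of the 31350 rows. The 3 were Abcb1b, with a male minus female difference of -0.51 ± 0.19 (adjusted p = 0.673), Abcc4, with 0.36 ± 0.14 (0.08 to 0.63, adjusted p = 0.678), and Abcc3, with 0.28 ± 0.10 (0.08 to 0.49, adjusted p = 0.655). The 95% intervals thus allowed differences between sexes larger than the smoke response itself.

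**Figure D3:**
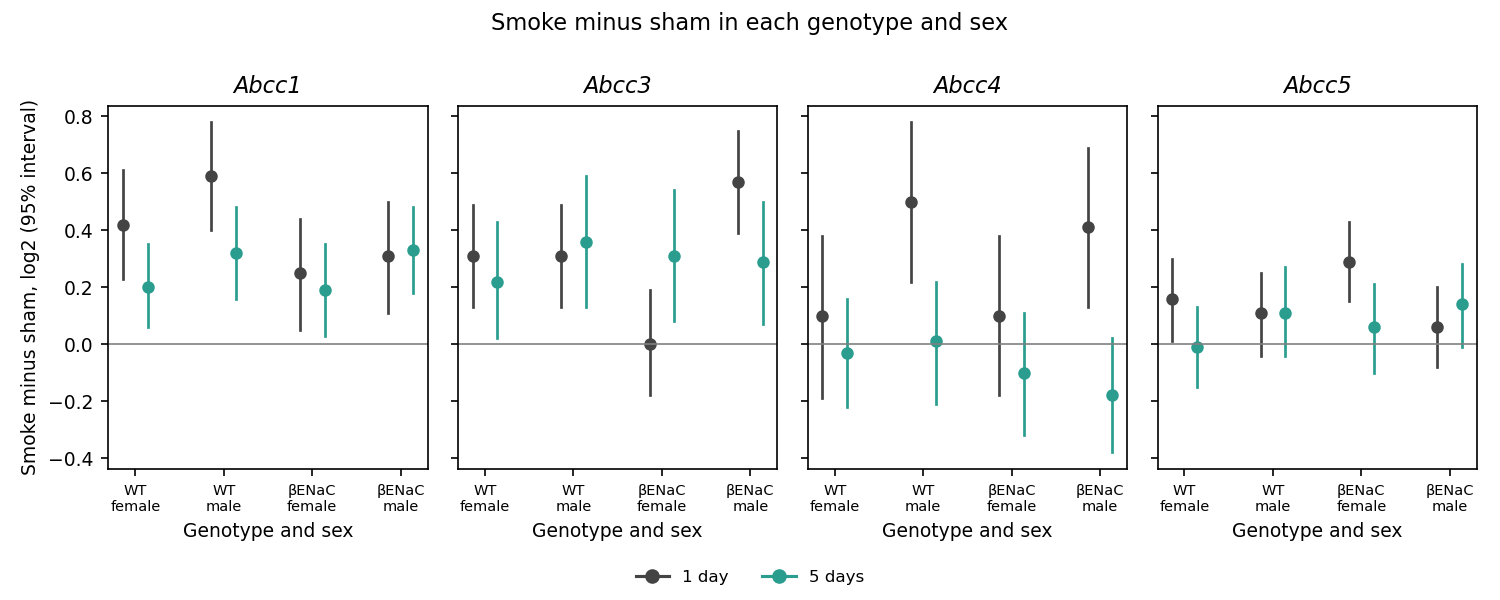
Smoke minus sham difference of Abcc1, Abcc3, Abcc4 and Abcc5 in each genotype and sex, in log2 units with 95% intervals, at 1 day (grey) and 5 days (green). Abcc1 lies above 0 in all 8 combinations, and Abcc4 at 1 day is 0.50 and 0.41 in males and 0.10 in both groups of females, a difference that did not pass the test.

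Genotype differences ran in both directions. Of the 8 transporters, 3 were called at 1 day, against 5.87% of all rows, and 4 at 5 days, against 10.2% of rows. Abcc3 was lower in βENaC than in WT mice at both durations, Abcc5 was higher at both, Abcg2 was higher at 1 day, and Abcc4 and Abcc1 were higher at 5 days. With the 1.3-fold rule Abcc3 alone passed at each duration, against 1.55% and 2.53% of all rows.

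Abcc3 was the transporter that separated the genotypes most. At 1 day it ranged from 7.81 to 8.56 (median 8.19) in WT mice and from 7.27 to 8.16 (median 7.69) in βENaC mice. None of the 20 βENaC mice reached the WT mean of its own exposure and sex group, although the ranges over all mice overlapped. The difference was -0.45 ± 0.05 (-0.56 to -0.34, adjusted p = 1.58e-07), or 0.733 of the WT level. At 5 days WT mice ranged from 7.78 to 8.65 (median 8.06) and βENaC mice from 7.31 to 8.01 (median 7.69), with 0 of 19 βENaC mice above the WT mean of their group. The difference was -0.44 ± 0.05 (-0.54 to -0.33, adjusted p = 1.62e-07). Without the 13 mice it was -0.44 at both durations (adjusted p = 8.87e-06 and 0.000115). In the order of mean levels WT smoke-exposed mice came first (8.31 ± 0.15, SD, at 1 day and 8.23 ± 0.22 at 5 days), followed by WT sham mice (7.94 ± 0.16 at 5 days), βENaC smoke-exposed mice (7.85 ± 0.26 and 7.80 ± 0.16) and βENaC sham mice (7.56 ± 0.18 and 7.51 ± 0.15). WT sham and βENaC smoke-exposed mice differed by less than 1 SD, while the steps from WT smoke-exposed to WT sham and from βENaC smoke-exposed to βENaC sham mice were larger than the SDs.

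Between genotypes, though not with smoke, the markers of club cells, secretory cells of the airway epithelium, differed in the same direction as Abcc3. All 4 of the 4 measured club cell markers fell in βENaC mice at each duration, with median differences of -0.27 and -0.40, from Scgb1a1 (-0.06 and -0.07) to Aldh1a7 (-0.31) at 1 day and Cldn10 (-0.53) at 5 days. Their mean level per mouse ranged from 10.01 to 10.33 in WT and from 9.77 to 10.14 in βENaC mice at 1 day, and from 10.13 to 10.46 against 9.72 to 10.09, without overlap, at 5 days. With smoke 2 of the 4 fell at 1 day and none passed at 5 days, while Abcc3 rose at both. Markers of other cell types differed between genotypes as well. Of the 4 measured alveolar type 1 markers, Hopx fell in βENaC mice at 1 day (-0.23), and Hopx (-0.29), Aqp5 (-0.15) and Ager (-0.12) fell at 5 days, while the mean level of the 4 ranged from 9.63 to 9.94 in WT and from 9.50 to 9.85 in βENaC mice at 5 days. Of the 5 alveolar type 2 markers, Lamp3 (0.13 at both durations) and Slc34a2 (0.09 and 0.10) rose, with mean levels from 12.04 to 12.27 in WT and from 12.11 to 12.34 in βENaC mice at 1 day. Of the 9 endothelial markers 5 fell and 1 rose at each duration. Of the fibroblast markers 3 of 5 rose at 1 day and 1 fell at 5 days, and 2 of 4 erythroid markers fell at 5 days. At 1 day 1 of 8 T and NK cell markers fell. At 5 days 1 of 6 ciliated cell markers fell and 1 of 7 monocyte markers rose. The part of all these cells in the Abcc3 difference was not tested, and in whole lung fewer cells of a type and less RNA per cell cannot be told apart.

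Abcc5 showed the opposite genotype difference. At 1 day WT mice ranged from 8.25 to 8.53 (median 8.37) and βENaC mice from 8.31 to 8.89 (median 8.59), and at 5 days from 8.28 to 8.51 (median 8.43) against 8.43 to 9.13 (median 8.65). At each duration 19 βENaC mice, of 20 and of 19, lay above the WT mean of their own exposure and sex group. The differences were 0.21 ± 0.04 (0.14 to 0.28, adjusted p = 0.000143) and 0.22 ± 0.04 (0.15 to 0.29, adjusted p = 3.79e-05). They were 0.23 (adjusted p = 0.000543) and 0.20 (0.0382) without the 13 mice. By mean level the βENaC groups took the top of the order, with βENaC smoke-exposed mice at 8.69 at both durations and βENaC sham mice at 8.59 and 8.51, and the WT groups lay between 8.32 and 8.46. The one step larger than both SDs was that between WT sham mice at 5 days (8.40 ± 0.07) and at 1 day (8.32 ± 0.04).

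Abcg2 ranged from 7.24 to 7.68 (median 7.44) in WT and from 7.24 to 7.83 (median 7.65) in βENaC mice at 1 day. Of the 20 βENaC mice 17 were above the WT mean of their group, and the difference was 0.18 ± 0.04 (0.09 to 0.26, adjusted p = 0.00716). At 5 days, when WT mice ranged from 7.40 to 8.14, it was 0.05 ± 0.05 (adjusted p = 0.634). Abcc4 did not pass at 1 day (-0.11 ± 0.07, adjusted p = 0.486). At 5 days it ranged from 6.03 to 6.59 (median 6.38) in WT and from 6.08 to 6.88 (median 6.53) in βENaC mice and was higher by 0.19 ± 0.05 (0.09 to 0.29, adjusted p = 0.00985). Abcc1 was higher by 0.11 ± 0.04 at 5 days (adjusted p = 0.0466), a call lost without the 13 mice (0.11, adjusted p = 0.219), in one fit over all mice (adjusted p = 0.1) and on leaving out any of 25 single mice from all 8 groups of that duration, up to 0.0782 without WT sham male 5. Abcb1a differed by 0.16 (adjusted p = 0.109) and 0.13 (adjusted p = 0.0765), and Abcb1b by 0.22 (0.256) and 0.16 (0.402).

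The genotype differences of 1 and 5 days were compared in all mice, a test added after the values were seen. No transporter passed, 0 of 8 against 0% of all rows by either rule, with 1 of 8 (Abcc4) and 1904 rows at an unadjusted p under 0.05. For Abcc4 the change was 0.29 ± 0.09 (0.12 to 0.47, adjusted p = 0.583) and for Abcg2 -0.13 ± 0.07 (adjusted p = 0.819). Beside these results, 4 of the 5 goblet cell markers were higher in βENaC mice at each duration, with median differences of 1.12 and 1.51 and mean levels from 4.64 to 7.23 in WT and from 5.50 to 7.56 in βENaC mice at 1 day. Of the 8 alveolar macrophage markers 4 were higher and 2 lower at each duration. The part of these and of the other cell type markers above in the Abcc5, Abcg2 and Abcc4 differences was not tested.

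Sex was a term of the main fits for exposure and genotype. Abcc3 was the 1 transporter of 8 called between males and females at 1 day, against 9.89% of all rows. Females ranged from 7.42 to 8.37 (median 7.82) and males from 7.27 to 8.56 (median 8.15), and males were higher by 0.17 ± 0.05 (0.06 to 0.27, adjusted p = 0.038). The call was lost under each of 3 other scalings of the arrays, with adjusted p from 0.0703 to 0.15, without the 13 mice (0.0669), and on leaving out any of 17 single mice from 7 groups (up to 0.0623 without βENaC smoke-exposed male 3). At 5 days 0 of 8 were called, against 0.616% of rows, with 0 of 8 transporters and 3555 of 31350 rows at an unadjusted p under 0.05. For a change in the sex difference with duration, also tested after the values were seen, 0 of 8 were called, against 0.654% of rows. At an unadjusted p under 0.05 were 0 of 8 transporters, beside 3485 of 31350 rows.

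**Figure D4:**
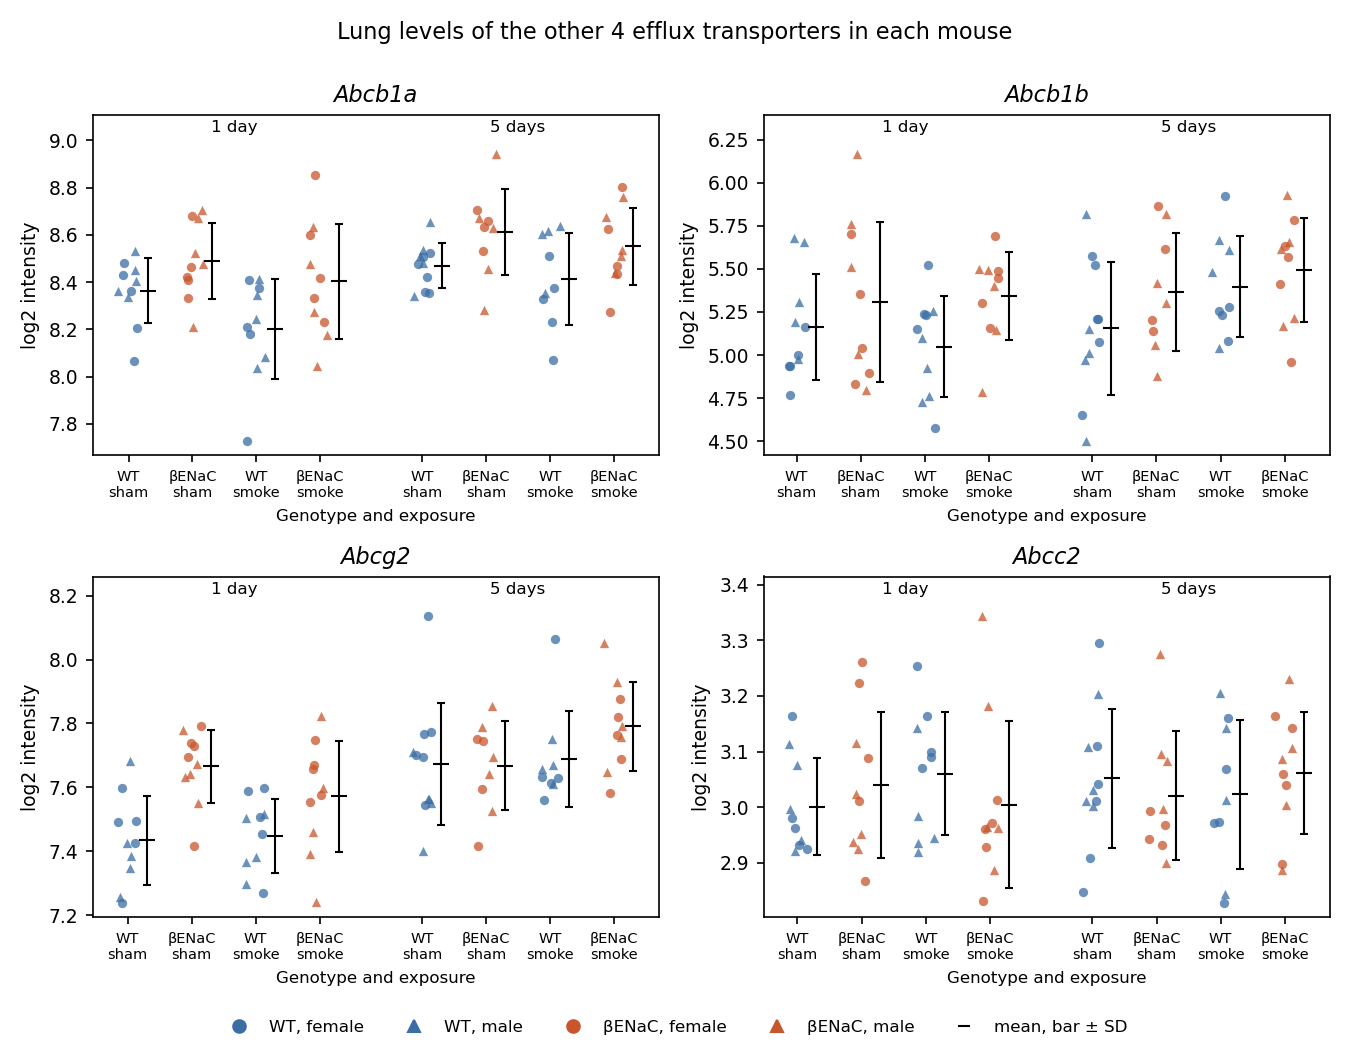
Log2 intensity of Abcb1a, Abcb1b, Abcg2 and Abcc2 in each mouse by genotype and exposure, at 1 day on the left and 5 days on the right of each panel, with circles for females, triangles for males and black bars for the mean ± SD. The smoke-exposed and sham mice of each gene overlap, and Abcg2 at 1 day is higher in βENaC mice by 0.18.

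Cell type markers also moved with smoke. Monocyte markers fell with smoke, 4 of 7 at 1 day and 5 of 7 at 5 days, their mean level ranging from 7.24 to 8.87 in sham and from 7.14 to 7.96 in smoke-exposed mice at 1 day. At 5 days the ranges were 7.39 to 8.10 and 6.71 to 7.84. Ciliated cell markers fell in 2 of 6 cases at 1 day. At 5 days 4 of 4 erythroid markers rose (mean level from 6.48 to 9.06 in sham and from 7.83 to 9.84 in smoke-exposed mice), 2 of 5 fibroblast markers fell, and 4 of 9 endothelial markers fell while 1 rose. At 1 day 2 endothelial markers and 1 fibroblast marker rose. Of the 5 goblet cell markers Agr2 rose (0.67) and Clca1 fell (-1.61) at 5 days, both named after their values were seen. Of the alveolar type 2 markers 1 of 5 fell at each duration. At 1 day 1 of 6 neutrophil, 1 of 6 B cell and 1 of 8 T and NK cell markers fell. So did 1 of 4 alveolar type 1 markers. At 5 days 1 of 8 alveolar macrophage markers fell and 1 of 5 heart muscle markers rose. The part of these cells in the transporter differences was not tested.

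The pumps work downstream of enzymes that make their substrates, so the same fits were read for the other genes of drug and conjugate handling. Of the genes of glutathione synthesis and conjugation, 12 of 24 measured genes rose and 3 fell at 1 day, and 15 rose and none fell at 5 days, with median differences of 0.17 and 0.21. At 1 day the largest were Slc7a11, which imports cystine for glutathione synthesis (3.65 ± 0.27), the glutathione S-transferase Gsta1 (1.63 ± 0.12), Gclm and Gclc, the subunits of glutamate-cysteine ligase (1.19 ± 0.06 and 1.06 ± 0.10), and Gsta4 (0.62 ± 0.06). At 5 days Slc7a11 differed by 1.69, Gsta3 by 0.82, Gclm by 0.79, Gsta1 by 0.58 and Gsta4 by 0.52. Gsta1 has a close paralog, Gsta2, and whether the same probes bind its RNA was not tested. Of the glucuronidation and sulfation enzymes 2 of 17 rose and 1 fell at 1 day, and 3 rose at 5 days. Sult5a1, a sulfotransferase, was the largest (0.40 ± 0.07 at 1 day).

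Targets of NRF2 and AHR, the transcription factors that sense electrophiles and aromatic hydrocarbons, rose in 12 of 15 measured genes at 1 day and 13 of 15 at 5 days, and none fell. Cyp1a1, a cytochrome P450 that oxidizes aromatic hydrocarbons, differed by 4.11 ± 0.25 and 4.59 ± 0.17, Cyp1b1 by 3.16 and 3.01, the quinone reductase Nqo1 by 2.87 and 2.64, and the aldehyde dehydrogenase Aldh3a1 by 2.84 and 2.39. These differences were several times those of the transporters. In 7 of the 15 the change in the smoke difference from 1 to 5 days passed the test and was negative. Abcc4 was called in the same direction, but near the threshold. The glutathione list and this list of targets share Gclc, Gclm, Gsr and Slc7a11. Among 17 regulators of transporter transcription 7 rose at 1 day and 6 at 5 days, led by Maff (0.52 ± 0.10 and 0.49 ± 0.07), a small partner of NRF2, and, at 1 day, Ahrr, the repressor of AHR (0.47 ± 0.06). Nfe2l2, the gene of NRF2, rose by 0.27 ± 0.03 (adjusted p = 1.24e-08) and 0.23 ± 0.03 (adjusted p = 6.37e-08). It was named for its role after its values were seen.

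Other transporters were counted in the same fits. Of 40 other ABC transporters 4 rose and 2 fell with smoke at 1 day, and 3 rose and 2 fell at 5 days. Past 1.3-fold were Abcb6, a porphyrin transporter of mitochondria (0.47 ± 0.05 and 0.44 ± 0.05), the lipid transporter relative Abca6 (0.38 ± 0.10 and 0.46 ± 0.07) and, at 5 days, Abcg3 (-0.39 ± 0.10). Of 35 uptake and efflux carriers of the SLC families for drugs and organic ions, 1 rose and 1 fell at 1 day and none rose and 2 fell at 5 days, past 1.3-fold Slco1a5, an uptake carrier of organic anions (-0.39 ± 0.07 at 1 day), and Slc22a3, an organic cation carrier (-0.65 ± 0.09 at 5 days). Between genotypes 6 of the 40 ABC transporters were higher and 4 lower in βENaC mice at 5 days, and 3 and 3 at 1 day.

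Last, the genes whose pattern over the 16 group means was most like that of each transporter were listed. Pearson's r is given as a description, since the group means of all genes come from the same arrays. For Abcc1 they were Txnrd1 (0.98), Slc7a11 (0.95) and Gclc (0.95), all 3 members of the glutathione or NRF2 and AHR lists. For Abcc4 they were Hmox1 (0.85), Gjb2 (0.81) and Nmur2 (0.80), and Hmox1, the heme oxygenase, rose by 1.76 ± 0.13 at 1 day with a change of -1.50 ± 0.20 from 1 to 5 days. For Abcc3 they were Pgrmc1, Ppp1r13b and Qk (all 0.96), for Abcc5 Galnt7 (0.94), Trim29 (0.93) and Capn15 (0.93), for Abcb1a Pcbd1 (0.92) and Tnfsfm13 (0.91), and for Abcg2 Appl2 (0.87), Lcmt1 (0.86) and Rpgrip1l (0.86). For Abcb1b they were Dnase2a (0.90), Kifc1 (0.86) and Mlph (0.84), and for the dim Abcc2 Olfr356 (0.78), 1700027H10Rik (0.76) and Gm9519 (0.75). Among the transporters themselves, Abcc1 and Abcc4 had an r of 0.60 over the group means and of 0.37 over the 79 mice after the group means were subtracted, Abcc1 and Abcc3 of 0.41 and 0.34, and Abcc3 and Abcc5 of -0.48 and -0.38.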

How the data were processed

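Whole lung RNA of 79 mice was hybridized to Affymetrix moGene2.1 arrays. The authors deposited log2 intensities, made per their methods and the submitters' processing notes by RMA, that is background correction, quantile normalization across arrays and median polish, with adjustment of probes for their sequence and GC content, in Expression Console 1.4 and Partek 6.6, after 1 array had been removed as mislabelled. The genome build used for annotation is not given in the sources used here. These deposited values entered the models without further scaling, and no column was left out. Of 31350 rows, 21837 received a symbol from the RefSeq gene table (GRCm38.p6) by unversioned transcript accession or, for 780, from the study's supplementary gene tables. Of 1757 rows named by both, 1487 had the same symbol. Each of the 8 transporters had 1 row, so no second row could be tried. The transporters and gene lists were chosen with earlier results of these data known.

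Linear models were fitted with limma 3.58.1 in R 4.3.3, each duration separately with genotype, exposure and sex as terms, after the study's own model. Interaction terms of exposure with genotype and sex, and of exposure with duration in all mice, were fitted in models of their own. P-values were two-sided and adjusted by Benjamini and Hochberg over all rows, and a row was called at an adjusted p under 0.05, with the study's further 1.3-fold rule counted beside it. Named genes were the 8 transporters, Scnn1b, for each list at most 5 genes with the largest exposure difference past both rules, and the 3 rows most like each transporter over 16 group means. One of these genes is not reported here. The fits were tested on simulated data with known changes. Of the rows called there, 8.06% were false for exposure at 1 day, 6.31% for genotype at 5 days and 3.06% for exposure at 5 days. Of the 1.3-fold changes, 94%, 93% and 91% were found. The simulation drew normal noise independently for each row and changed few rows, so these shares need not hold for the real arrays. Settings tried besides were an ordinary linear model, one fit over all mice, 3 other scalings (median centring, quantile and cyclic loess), leaving out the lowest 30% of rows, array weights, a trended robust prior, a replicate block, a 1.5-fold rule, single interaction terms, models with fewer terms, equal weight to the 8 groups, each of the 79 mice left out, and the 13 mice with contradictory labels left out. Comparisons of genotype and sex differences between durations were added after the values were seen. No protein table was used, so sequence identity of the transporters was not computed. The number of arrays limits the precision. Figures were drawn with matplotlib 3.10.9.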

Additional observations from a re-analysis of the deposited data

Results flagged for a closer look

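In 10 of 128 group values tested (8 transporters in 16 groups of 4 to 6 mice) the highest or lowest mouse stood far from the nearest other mouse of its group. Chance flags about 1 in 20 such groups. Low mice were WT smoke-exposed male 2 at 5 days for Abcb1a (8.35, the next at 8.60), WT sham male 5 and WT smoke-exposed female 1 at 5 days for Abcc1 (7.22 and 7.33, the next at 7.44 and 7.67), βENaC smoke-exposed male 1 at 1 day for Abcc3 (7.78, the next at 8.07), and βENaC sham female 5 at 1 day for Abcg2 (7.42, the next at 7.70). WT smoke-exposed female 2 at 5 days was high for Abcb1b (5.92, the next at 5.28) and for Abcg2 (8.06, the next at 7.63). For the dim Abcc2, WT sham female 1 (3.16) and WT smoke-exposed male 4 (3.14) at 1 day were each far from the nearest other mouse at 2.98. βENaC smoke-exposed male 1 at 5 days lay at 8.60 for Abcc5, with the next at 8.72.

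Abcc4 passed the limma test for a change in its smoke difference between durations (-0.34, adjusted p = 0.0389). This call was near the threshold. It was lost without the 13 mice with the contradictory label (adjusted p = 0.313) and on leaving out any of 21 single mice. Within βENaC males the smoke minus sham difference of Abcc4 was 0.41 at 1 day and -0.18 at 5 days. Every smoke-exposed mouse lay above the sham mean at 1 day and below it at 5 days. The change within βENaC males was not tested. Abcc2 in females at 1 day differed by 0.14 in WT and by -0.15 in βENaC mice, with every smoke-exposed mouse on that side of the sham mean. The difference within females was not tested, and over both sexes the exposure by genotype term of Abcc2 was -0.09 ± 0.08 (adjusted p = 0.84).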

How the results depend on the processing

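The count of transporters called for smoke at 1 day (4) and at 5 days (2) and for genotype at 1 day (3) was within 1.5 times of its value in every setting but the fold rules, and no single transporter that was called changed sign. With the 1.3-fold rule the counts were 1 and 0 for smoke at 1 and 5 days, 1 and 1 for genotype, 0 for exposure by duration and 0 for sex at 1 day, and with a 1.5-fold rule all 6 were 0. Exposure by duration fell from 1 to 0 with exposure and duration terms only and without the 13 mice with contradictory labels. Sex at 1 day fell from 1 to 0 without those mice and under median centring, quantile and cyclic loess scaling. The cause was not tested. When each of the 79 mice was left out, counts ran from 4 to 4 and 2 to 2 for smoke, 3 to 3 and 3 to 5 for genotype at 1 and 5 days, 0 to 1 for exposure by duration and for sex at 1 day, and 0 to 0 for the others.

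Abcb1a, not called for genotype at 5 days, was called under cyclic loess (0.15, adjusted p = 0.028), array weights (0.14, 0.0321) and without βENaC sham male 3 (0.0252) or βENaC smoke-exposed female 3 (0.0481). Mice with the same replicate number in different groups had a mean r of 0.0121 between their deviations (266 pairs, 42 over 0.1). For mice with different numbers it was -0.00273 (1098 pairs). The numbers were therefore not treated as pairs. Whether mice shared litters or exposure sessions was not tested. With the replicate number as a block, 1 of 104 values changed its call, Abcc1 for genotype at 5 days (0.11, adjusted p = 0.0591). Another scaling moved the share of higher among all called rows by over 10 points for sex at 1 day (79.1% against 67%, 52% and 55.3%), sex by duration (4.39% against 27.4%, 33.3% and 21.4%), sex at 5 days (76.7% against 87.5% with median centring), genotype at 5 days (47.7% against 59.4% with cyclic loess), exposure by duration (46.4% against 57.3% with cyclic loess) and exposure by genotype at 1 day (50% of 2 rows against 33.3% of 3 rows under all 3 scalings). No scaling moved the median of all rows by over 0.1. Abcc2, among the lowest 30% of rows, had no value where these were left out, and without the 13 mice exposure by genotype at 5 days could not be fitted. No second row per transporter could be tried.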
